A study of Mus musculus with 4 samples.

Results

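The TET and ALKBH enzymes are dioxygenases that need iron and 2-oxoglutarate to remove or oxidize methyl groups on DNA and RNA. Their genes were compared between iTreg cells cultured with ferrous sulfate and iTreg cells cultured with PBS. The group held the 8 genes Tet1, Tet2, Tet3, Fto, Alkbh1, Alkbh3, Alkbh5 and Alkbh8. They were chosen by enzyme family and name and not by any measured value, though with earlier results of these data known. By Ensembl ID, all 8 were found among the 47729 gene rows of the count table. All 8 also passed the filter on low counts, which left 13732 genes for testing.

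iTreg cells are CD4 T cells in which TGF-β turns on Foxp3, the transcription factor of regulatory T cells, during culture. The cells came from C57BL/6 mice with no genetic change. The labels give the spleen as the tissue, whereas the methods for such cultures name lymph nodes as well. By these methods, naive CD4 T cells were stimulated with antibodies against CD3 and CD28. Every culture contained 5 ng/mL TGF-β, 100 U/mL IL-2 and blocking antibodies against IFN-γ and IL-4 at 5 µg/mL. The Mock group received PBS and the FeSO4 group received 50 µM FeSO4, both for 4 days, with 2 libraries of total RNA per group. The mice were 6 to 8 weeks old. According to the methods of the study, the libraries came as 2 pairs from 2 independent experiments. Neither the methods nor the labels say whether the replicate numbers mark these pairs, and the Foxp3+ share of the sequenced cultures was not given in the sources used here.

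The gene rows held between 35183187 and 40859178 reads per library, and replicates of a group differed by more than sampling noise. The CD4 T cell and iTreg markers Cd4, Cd3d, Cd3e, Foxp3, Il2ra and Ctla4 were abundant in every library (3368 to 3623 CPM, that is reads scaled to a common library size, in sum). Foxp3 itself had 23802 and 28997 counts in Mock and 12869 and 17458 in FeSO4. In bulk RNA, fewer cells of a type cannot be told apart from less RNA per cell. The 4 B cell markers summed to 2.38 to 3.38 CPM, the 2 CD8 T cell markers to 9.04 to 11.0 CPM and the 5 myeloid markers to 0.379 to 4.56 CPM, with the highest myeloid sum in Mock replicate 1. Both NK cell markers had no reads in any library, which allows a level of up to 0.0853 CPM in the least deep one. Of the 4 erythroid markers 3 were matched to a gene row. Their sum was 24.9 and 19.8 CPM in the Mock libraries and 37.6 and 32.6 CPM in FeSO4, nearly all from Hba-a1. The part of these markers in the results on the dioxygenases was not tested.

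TET enzymes convert 5-methylcytosine to 5-hydroxymethylcytosine and further oxidized forms, which are then lost through replication or base excision repair. In Treg cells this chemistry is known for keeping an intronic enhancer of Foxp3 free of methylation. FTO and ALKBH5 remove methyl groups from N6-methyladenosine (m6A) in mRNA, whereas ALKBH1, ALKBH3 and ALKBH8 act on tRNA or on damaged nucleic acid. Because these enzymes bind ferrous iron in the active site, iron can set their activity without any change in mRNA, and only mRNA was measured here.

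To show sequence context, the 150 bases just upstream of the RefSeq transcript start are given for 4 genes, from RefSeq on GRCm38.p6. Tet3 (chr6:83441679-83441828, minus strand) was the gene called at an adjusted p under 0.05. The 3 genes closest to this threshold were Alkbh5 (chr11:60537533-60537682, plus strand), Alkbh1 (chr12:87443840-87443989, minus strand) and Fto (chr8:91313375-91313524, plus strand). Each stretch runs 5′ to 3′ on the strand of the gene. Capitals mark the GC box GGGCGG and the CCAAT box CCAAT on either strand, and the core ACGTG of the HIF binding site was searched as well.
Tet3: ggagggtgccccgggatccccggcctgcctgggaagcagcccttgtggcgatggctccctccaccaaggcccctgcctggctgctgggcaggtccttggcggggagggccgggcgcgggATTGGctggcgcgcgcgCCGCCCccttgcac
Alkbh5: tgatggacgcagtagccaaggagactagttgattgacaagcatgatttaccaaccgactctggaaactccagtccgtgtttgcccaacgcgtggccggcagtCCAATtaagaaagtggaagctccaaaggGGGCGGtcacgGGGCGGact
Alkbh1: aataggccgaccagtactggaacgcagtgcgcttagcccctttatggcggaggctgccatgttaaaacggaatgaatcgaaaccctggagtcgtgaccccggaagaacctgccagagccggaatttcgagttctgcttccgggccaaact
Fto: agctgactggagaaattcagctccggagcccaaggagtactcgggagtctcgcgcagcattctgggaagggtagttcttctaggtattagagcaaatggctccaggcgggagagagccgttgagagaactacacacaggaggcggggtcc
The motifs were counted over 250 bases upstream of the start. The Tet3 stretch held 1 GC box and 1 CCAAT box, and the Alkbh5 stretch held 2 GC boxes and 1 CCAAT box. Neither motif was found upstream of Alkbh1 or Fto. Over all 32851 RefSeq windows of this length, 32.7% held a GC box and 33.8% held a CCAAT box. The letters ACGTG, which also form part of the E-box CACGTG, were found upstream of 1 of the 8 genes, Tet2, and in 16.6% of all windows. No E-box was found upstream of the 8 genes, against 6.02% of all windows with one. CpG pairs numbered 4 (Alkbh8) to 51 (Tet2) in the 8 stretches, with 17 for Tet3, 14 for Alkbh5 and 18 each for Alkbh1 and Fto, and the median over all windows was 6. For Tet3 and Fto, and likewise for Tet1, Tet2 and Alkbh3, the annotated gene begins upstream of the start used here, and no window was placed at that earlier start.

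**Figure D1:**
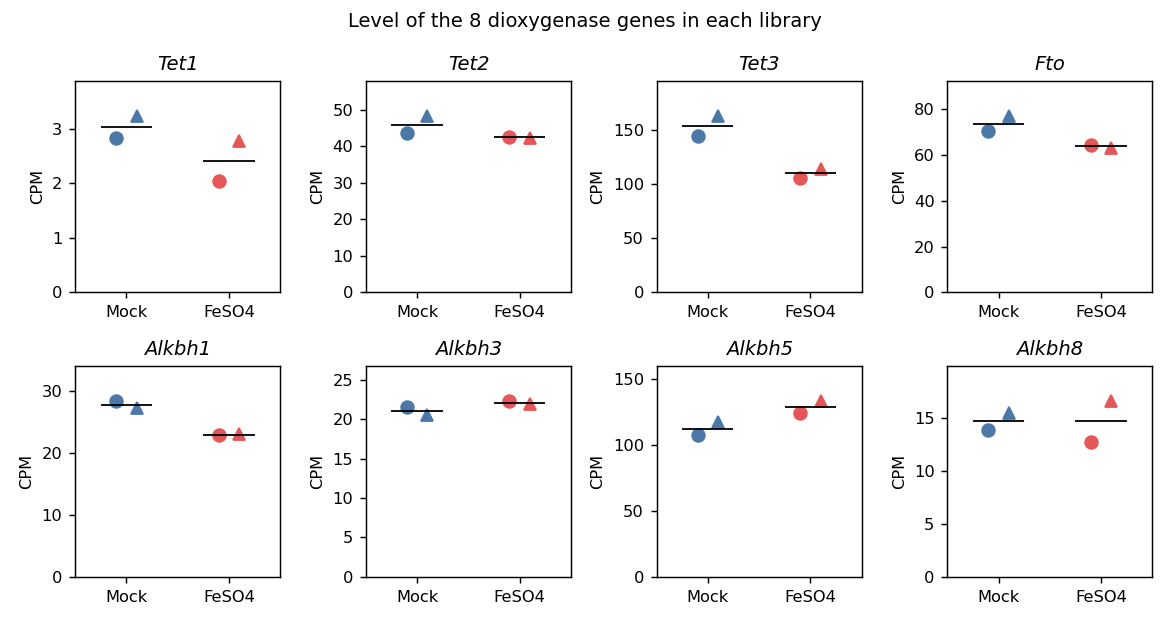
Level of each of the 8 genes in CPM (TMM-scaled; vertical axis, starting at 0, one scale per gene) in Mock (blue) and FeSO4 (red), with circles for replicate 1, triangles for replicate 2 and a line at the group mean. Tet3 shows the widest gap, with 145 and 163 CPM in the Mock libraries and 106 and 114 CPM in FeSO4, whereas the libraries of Alkbh8 overlap.

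Tet3 was the single gene of the 8 that passed the threshold of an adjusted p under 0.05. It encodes a TET enzyme that carries a CXXC DNA-binding domain in its long form. Its level was 145 and 163 CPM in Mock replicates 1 and 2, and 106 and 114 CPM in FeSO4 replicates 1 and 2 (5866, 6802, 3627 and 4221 counts). Both FeSO4 libraries lay below both Mock libraries. The Mock mean of 154 ± 12.8 CPM (SD, n = 2) fell to 110 ± 5.77 CPM in FeSO4 (SD, n = 2). The log2 fold change was -0.48 ± 0.07 (SE), a change of -28.4% (edgeR quasi-likelihood test, adjusted p = 0.000239 over all 13732 genes). Ordered by p, Tet3 stood at position 319 among all genes tested. The log2 ratio of FeSO4 to Mock was -0.45 between the libraries numbered 1 and -0.51 between those numbered 2. Tet3 (ENSMUSG00000034832) lies on chromosome 6 at 83362373 to 83457208 (GRCm38.p6, minus strand), and its exons overlapped no other annotated gene. The call held in all 13 alternatives, in which the log2 fold change ranged from -0.57 to -0.40 and the adjusted p was at most 0.0403.

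Tet2, which lacks the CXXC domain and is the TET gene most often mutated in blood cancers, was at 43.5 and 48.2 CPM in Mock and at 42.6 and 42.3 CPM in FeSO4. The FeSO4 libraries were both lower, but by less than the Mock libraries differed from each other. Its log2 fold change was -0.11 ± 0.09 (SE, edgeR adjusted p = 0.41), and it went from -0.03 to -0.19 depending on which Mock library was left out. Tet2 (ENSMUSG00000040943) lies on chromosome 3 at 133463677 to 133545136 (GRCm38.p6, minus strand).

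Tet1, the TET gene best known from embryonic stem cells, was near the limit of use. It had 115 and 135 counts in Mock and 70 and 103 in FeSO4, or 2.83, 3.23, 2.04 and 2.78 CPM. For FeSO4 replicate 1, counting error alone gives a 95% Poisson interval of 1.59 to 2.58 CPM, and for Mock replicate 2 it gives 2.71 to 3.82 CPM. The log2 fold change of -0.32 ± 0.28 (SE, edgeR adjusted p = 0.465) was not a detectable difference with so few reads, and leaving out FeSO4 replicate 1 gave -0.12, while leaving out FeSO4 replicate 2 gave -0.57. Tet1 (ENSMUSG00000047146) lies on chromosome 10 at 62804570 to 62887469 (GRCm38.p6, minus strand).

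Levels of different genes were compared per kilobase of exon. On this scale the sum of the 3 TET genes was 18.0 and 20.1 CPM per kb in Mock and 14.3 and 15.1 CPM per kb in FeSO4, so the groups did not overlap. Tet3 made up 72.6% and 72.9% of this sum in Mock and 66.7% and 68.2% in FeSO4. The share of Tet2 was 26.3% and 26.0% in Mock and 32.3% and 30.5% in FeSO4, and that of Tet1 was 0.97% to 1.26% in the 4 libraries. Tet3 thus remained the most abundant TET transcript under iron. These shares are descriptions, and the difference between the responses of Tet3 and Tet2 was not tested.

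The m6A demethylase genes lay on opposite sides of 0. Fto, which encodes a demethylase of m6A and of the cap-adjacent m6Am, was at 70.7 and 77.0 CPM in Mock and at 64.5 and 63.3 CPM in FeSO4. Both FeSO4 libraries were below both Mock libraries. The log2 fold change was -0.21 ± 0.08 (SE), and the adjusted p of 0.0651 (edgeR) did not pass the threshold. Alkbh5, which encodes the nuclear m6A demethylase, was at 107 and 117 CPM in Mock and at 124 and 133 CPM in FeSO4. Both FeSO4 libraries were above both Mock libraries, with a log2 fold change of 0.20 ± 0.07 (SE) and an adjusted p of 0.0582 (edgeR). ALKBH5 is known as a hypoxia-inducible gene product in other cells. Neither gene had exons that overlapped another annotated gene. Fto (ENSMUSG00000055932) lies on chromosome 8 at 91313367 to 91668433 and Alkbh5 (ENSMUSG00000042650) on chromosome 11 at 60537683 to 60558512 (GRCm38.p6, plus strand for both).

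Of the genes that act on tRNA and damaged nucleic acid, Alkbh1 had the largest difference. ALKBH1 removes 1-methyladenosine from tRNA and oxidizes 5-methylcytosine in the anticodon of a mitochondrial tRNA. Alkbh1 was at 28.5 and 27.3 CPM in Mock and at 22.9 and 23.1 CPM in FeSO4, with no overlap of the groups and a spread within each group that was small beside the gap. The log2 fold change of -0.28 ± 0.10 (SE) had an adjusted p of 0.0623 (edgeR). Alkbh1 (ENSMUSG00000079036) lies on chromosome 12 at 87428077 to 87443839 (GRCm38.p6, minus strand). Its exons shared 198 bases with a second gene model on the same strand, 2700073G19Rik, and how reads in that stretch were counted was not given in the sources used here.

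Alkbh3, which encodes a repair enzyme for 1-methyladenine and 3-methylcytosine, was nearly level, at 21.5 and 20.5 CPM in the Mock libraries and 22.3 and 21.9 CPM in FeSO4. The groups did not overlap, but the log2 fold change was 0.07 ± 0.11 (SE, edgeR adjusted p = 0.682). Alkbh3 (ENSMUSG00000040174) lies on chromosome 2 at 93980624 to 94010824 (GRCm38.p6, minus strand), where its exons shared 85 bases with the long noncoding RNA gene 4921507L20Rik on the other strand. Alkbh8, which encodes an enzyme that both methylates and hydroxylates the wobble uridine of some tRNAs, was at 13.8 and 15.5 CPM in the Mock libraries and 12.7 and 16.6 CPM in FeSO4. The 2 FeSO4 libraries lay on either side of both Mock libraries. Its log2 fold change was 0.0019 ± 0.14 (SE, edgeR adjusted p = 0.996), and the sign changed with the library left out. Alkbh8 (ENSMUSG00000025899) lies on chromosome 9 at 3335231 to 3391154 (GRCm38.p6, plus strand).

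**Figure D2:**
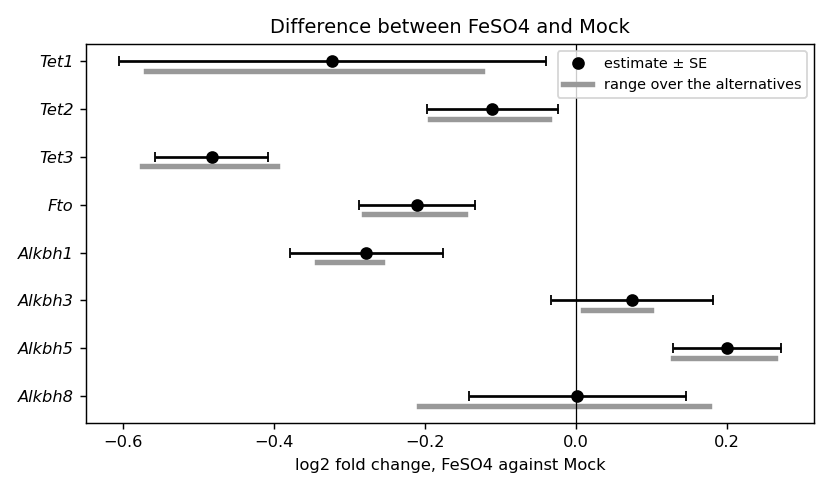
Log2 fold change of FeSO4 against Mock for the 8 genes (points with bars of ± 1 SE, edgeR fit) with the range over the 13 alternatives in gray. The range of Tet3, -0.57 to -0.40, lies farthest from 0, and that of Alkbh8, -0.21 to 0.18, spans it.

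Set beside all genes, the number of dioxygenase genes called was not large. At an adjusted p under 0.05 by edgeR, 1 of the 8 was called, against 20.0% of all 13732 genes. This gene was lower, as were 9.17% of all genes. None of the 8 was called higher by edgeR, DESeq2 or limma-voom, against 10.9% of all genes by edgeR, and 1 (Alkbh5) was higher at an unadjusted p under 0.05. At an unadjusted p under 0.05 there were 4 of 8, Tet3, Alkbh5, Alkbh1 and Fto, against 32.3% of all genes. At the threshold of the study, a log2 fold change of 0.5 or more in either direction and an unadjusted p under 0.05, none of the 8 was called, against 10.4% of all genes, since Tet3 stayed just short of the fold change. In 5 of the 8 both FeSO4 libraries lay below both Mock libraries, against 29.4% of all genes, and in 2 they lay above, against 30.1%. The median log2 fold change of the 8 was -0.16, and that of all genes was -0.00052.

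Of the 3 genes just above the threshold, Fto and Alkbh1 passed or not with the scaling, and Alkbh5 passed under none of the scalings tried. With library size only, the adjusted p was 0.0177 for Fto, 0.0232 for Alkbh1 and 0.201 for Alkbh5. With upper quartile scaling it was 0.0424, 0.0482 and 0.0831, and with DESeq2 size factors it was 0.0618, 0.059 and 0.066 (all edgeR). With the test of DESeq2 in place of edgeR, the adjusted p was 0.083, 0.0967 and 0.0781. A block on the replicate number brought all 3 below the threshold (edgeR adjusted p = 0.0345, 0.0427 and 0.018). Whether this block matches the true pairs is unknown. Without Mock replicate 1 Fto passed (edgeR adjusted p = 0.0386), and without Mock replicate 2 Alkbh5 passed (edgeR adjusted p = 0.0434).

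Per kilobase of exon, Alkbh5 was the most abundant of the 8 in Mock, at 18.7 ± 1.16 CPM per kb, followed by Tet3 at 13.9 ± 1.15, Alkbh3 at 6.64 ± 0.229, Fto at 5.67 ± 0.347, Alkbh1 at 5.64 ± 0.166, Tet2 at 4.98 ± 0.362, Alkbh8 at 4.00 ± 0.318 and Tet1 at 0.206 ± 0.0189 (SD, n = 2 each). The libraries of Fto and Alkbh1 overlapped, and those of all other neighbors in this order did not. The order was the same in FeSO4, where Alkbh5 reached 21.5 ± 1.06 and Tet3 9.92 ± 0.521 CPM per kb. The gap between the 2 most abundant genes was therefore wider in FeSO4 than in Mock. The middle of the order rested on the length used. With the longest annotated transcript in place of all exons, Fto (15.7 ± 0.959) and Alkbh3 (15.0 ± 0.518) stood above Tet3 (14.1 ± 1.17). The ranges of mean ± SD of these 3 genes overlapped, and the differences between them were not tested.

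**Figure D3:**
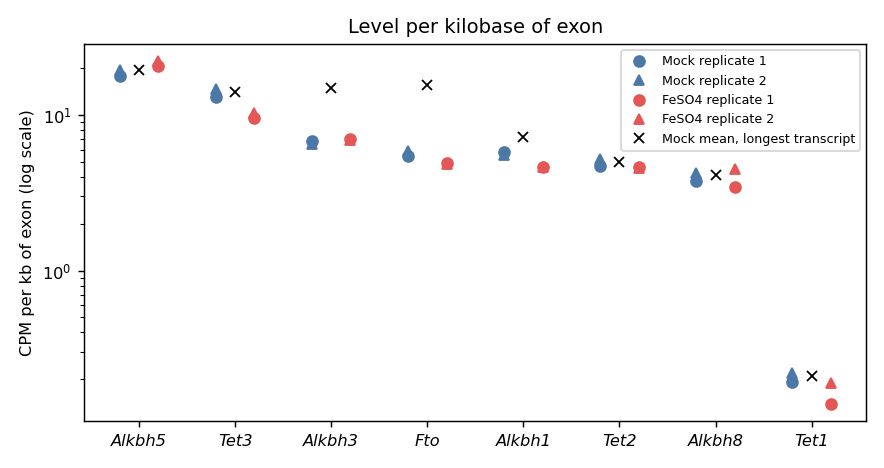
Level of the 8 genes per kilobase of exon (CPM per kb, log axis) in Mock (blue) and FeSO4 (red), with circles for replicate 1 and triangles for replicate 2, ordered by the Mock mean. Crosses give the Mock mean per kilobase of the longest transcript, which lifts Fto to 15.7 and Alkbh3 to 15.0.

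Among the 8521 other genes averaging 10 CPM or more, those whose log2 levels followed Tet3 most closely across the 4 libraries were Btg1, Prkce, Tfdp2, Acvr1b and Ift80 (Euclidean distance 0.023 to 0.0448 after centering each gene on its mean). Btg1, an antiproliferative gene of resting lymphocytes, was the nearest. It was at 433 and 480 CPM in the Mock libraries and 313 and 334 CPM in FeSO4, a log2 fold change of -0.50 ± 0.07 (SE, edgeR adjusted p = 6.54e-05). Tfdp2 encodes a partner of E2F factors and Acvr1b encodes an activin receptor. With 4 libraries there is little to tell patterns apart, so this likeness is a description.

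The 4 remaining ALKBH genes measured, Alkbh2, Alkbh4, Alkbh6 and Alkbh7, all had log2 fold changes below 0 (median -0.20), but none passed the threshold by edgeR with TMM, DESeq2 or limma-voom, and with library size only 1 of them was called lower. Alkbh6 was at 25.9 and 23.0 CPM in Mock and at 21.1 and 19.6 CPM in FeSO4 (log2 fold change -0.26 ± 0.11, SE, edgeR adjusted p = 0.107), and was the 1 of the 4 with an unadjusted p under 0.05. The log2 fold change was -0.14 for Alkbh4, -0.30 for Alkbh2 and -0.03 for Alkbh7. Alkbh2 was at no more than 2.71 CPM in any library.

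Among the listed partners of the TET enzymes in the turnover of DNA methylation, called genes lay on both sides of 0. By edgeR, 33.3% of the tested writer and maintenance genes were called, against 20.0% of all genes. The share was 15.4% for the genes that act after TET enzymes or bind them, and 14.3% for the listed readers of methylated DNA. Of the 6 writer and maintenance genes tested, 2 rose and 4 did not pass. Hells, a chromatin remodeler needed for DNA methylation, rose from 64.6 and 63.8 CPM to 84.4 and 85.7 CPM (log2 fold change 0.41 ± 0.07, SE, edgeR adjusted p = 0.000896). Uhrf1, which guides DNMT1 to newly copied DNA, rose by 0.24 ± 0.07 on the log2 scale (edgeR adjusted p = 0.0188). The maintenance methyltransferase Dnmt1 was at 0.10, the de novo enzymes Dnmt3a and Dnmt3b at -0.16 and -0.06, and Uhrf2 at -0.08. Without FeSO4 replicate 1 or Mock replicate 2, 1 of these genes was called higher. Dnmt3l did not pass the filter on low counts.

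Of 13 tested genes that act after TET enzymes or bind them, Gadd45g, a stress gene linked to DNA demethylation, fell by 0.73 ± 0.11 on the log2 scale (30.3 and 32.8 CPM in Mock, 17.6 and 20.3 CPM in FeSO4, edgeR adjusted p = 0.000178). Neil3, a DNA glycosylase, rose by 0.28 ± 0.08 (edgeR adjusted p = 0.0221). The other 11 did not pass, with Oga at -0.12 and Hmces at 0.19. Tdg, the glycosylase that removes the oxidized bases made by TET enzymes, was at -0.06, and Ogt, a glycosyltransferase that binds TET2 and TET3, was at -0.02 (both named outside the naming rule). Neil3 did not pass without FeSO4 replicate 2 or without either Mock library. Among the 7 genes listed as readers of methylated DNA, Zbtb4 fell by 0.31 ± 0.09 (edgeR adjusted p = 0.0171). Zbtb4 did not pass without FeSO4 replicate 1 or Mock replicate 2. The others did not pass, with Mbd2 at 0.16, Zbtb38 at 0.20, Mbd1 at -0.14, Zbtb33 at -0.17 and Mbd3 at 0.05.

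On the side of RNA methylation, 1 of 13 m6A writer genes tested was called (7.69%), against 20.0% of all genes. Of the reader genes tested, 3 of 10 were called (30%). The called writer gene and the 3 called reader genes were higher, as were 10.9% of all genes. Wtap, a subunit of the m6A writer complex, rose by 0.25 ± 0.07 on the log2 scale (edgeR adjusted p = 0.0184), and it did not pass without FeSO4 replicate 1 or Mock replicate 1. The catalytic pair Mettl3 and Mettl14, named outside the rule, was at -0.04 and 0.02. Mettl5, Mettl16 and Zc3h13 did not pass (0.42, 0.21 and -0.10). The RNA-binding proteins Hnrnpa2b1 and Hnrnpc rose by 0.27 ± 0.06 each, and Igf2bp3 by 0.65 ± 0.16 (edgeR adjusted p = 0.0033, 0.00441 and 0.00802). Ythdc2 was at -0.29 ± 0.10 (edgeR adjusted p = 0.0593). The median was -0.03 for the writers and 0.10 for the readers. Wtap did not pass with library size only or without the filter on low counts, and 1 reader gene was called lower with upper quartile scaling or library size only.

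Of 18 genes that work on tRNA or 1-methyladenosine beside ALKBH1, ALKBH3 and ALKBH8, 1 was called higher, against 10.9% of all genes. This gene was Elp5, which encodes a subunit of the Elongator complex that modifies wobble uridine. Elp5 rose by 0.27 ± 0.08 on the log2 scale (edgeR adjusted p = 0.0286), and it did not pass without FeSO4 replicate 1 or without either Mock library. Elp2 and the tRNA methyltransferase gene Nsun2 did not pass (both 0.20). The median of the 18 was 0.0013.

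Genes that supply 2-oxoglutarate or its competitors were called in 6 of 20 cases (30%), against 20.0% of all genes. The 6 were 5 higher and 1 lower, and the median of the 20 was 0.085. Idh1, the cytosolic enzyme that makes 2-oxoglutarate, was at 13.0 CPM in both Mock libraries and at 18.8 and 21.7 CPM in FeSO4 (log2 fold change 0.64 ± 0.13, SE, edgeR adjusted p = 0.00169). Idh3a rose by 0.24 ± 0.07 and the succinate dehydrogenase subunit Sdhb by 0.22 ± 0.07. Idh2 and Got1, named after their values were seen, rose by 0.24 ± 0.08 and 0.27 ± 0.09 with an adjusted p of 0.0494 and 0.0493 (edgeR), and with DESeq2 and limma-voom 3 genes of the list were called higher. Slc23a2, a transporter of vitamin C, which keeps the iron of these enzymes in the reduced state, fell by 0.30 ± 0.08 (Mock 64.4 and 64.5 CPM, FeSO4 53.6 and 51.0 CPM, edgeR adjusted p = 0.0117). Without FeSO4 replicate 1 or Mock replicate 2, 1 gene of this list was called higher, and without FeSO4 replicate 2 Slc23a2 did not pass.

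**Figure D4:**
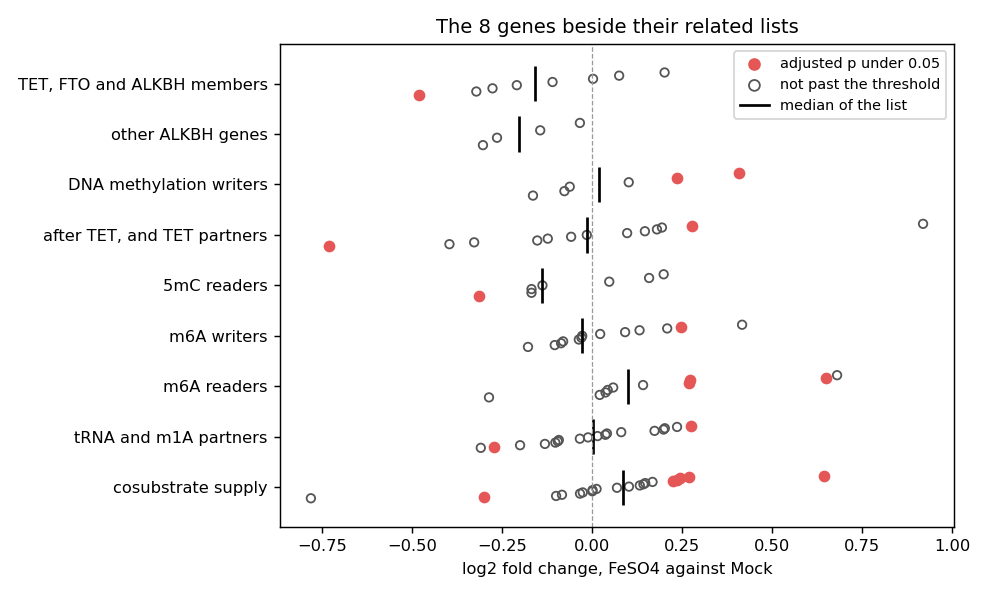
Log2 fold change of FeSO4 against Mock for each tested gene of the 8 dioxygenases and of the 8 related lists (1 point per gene, filled where the adjusted p was under 0.05, with a bar at each median). Tet3 at -0.48 is the one filled point among the dioxygenases, and the list medians lie between -0.20 and 0.10.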

How the data were processed

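RNA-seq of total RNA from 2 Mock and 2 FeSO4 iTreg libraries was analyzed from raw read counts per gene, which the authors deposited as 1 table without normalization. The methods name STAR and mm9. The submitters' processing notes name Trim Galore 0.6.7, STAR 2.7.9a, featureCounts and mm10, while the 5 closing rows have the form of another counter, and 14930 gene IDs have no entry in the mm9 annotation GENCODE M1. The annotation and the strand setting were not given in the sources used here, so reads of overlapping genes cannot be assigned with certainty. The 5 closing rows were left out of library sizes. They held reads without a gene (4.36% to 6.03% of all reads), ambiguous reads (3.78% to 3.91%), reads with several alignments (4.27% to 4.62%), unaligned reads (1.8% to 2.31%) and reads of low mapping quality (0.802% to 0.988%). Symbols were matched for 32799 of 47729 gene IDs.

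Counts were scaled by TMM and filtered by group with filterByExpr, which kept 13732 genes and 99.9% of the counts. FeSO4 was compared with Mock by the quasi-likelihood test of edgeR 4.0.16 (R 4.3.3, legacy = FALSE) without a block, and p-values were adjusted by Benjamini-Hochberg over all genes kept. SE was the absolute log2 fold change divided by the square root of F. The scripts were tested on simulated data. Levels per kilobase used the merged exons of GENCODE M1, positions and upstream sequences came from RefSeq (GRCm38.p6), and Poisson intervals (95%) cover counting error only. With 2 libraries per group, p-values rest on the spread between these libraries and on the variance shared across genes. The alternatives were DESeq2 size factors, upper quartile and library size scaling, other count filters, DESeq2 1.42.0, limma-voom (limma 3.58.1), a replicate block, each library left out and, chosen after seeing the data, the legacy quasi-likelihood method.

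The 8 genes and the related lists were chosen with earlier results of these data known. Named were the 8 genes, the 4 genes of smallest p of each related list, every tested gene of the short lists of ALKBH and DNA methylation genes, and the 5 genes nearest to Tet3. A few genes that this rule or the marker lists name are not reported here. No table of proteins was used.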

Additional observations from a re-analysis of the deposited data

How the results depend on the processing

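Tet3 was called lower in all 13 alternatives with the quasi-likelihood test, DESeq2 or limma-voom at an adjusted p under 0.05. The number of the 8 genes called lower, 1 as reported, was 3 with upper quartile scaling, with library size only and with the replicate block, 2 with at least 10 counts in every library, and 0 at the threshold of the study. It was 1 to 2 when single libraries were left out, with Fto joining without Mock replicate 1 (adjusted p = 0.0386). The number called higher, 0 as reported, was 1 with the replicate block and 0 to 1 with single libraries left out, with Alkbh5 called without Mock replicate 2 (adjusted p = 0.0434). With the replicate block the adjusted p was 0.0427 for Alkbh1, 0.0345 for Fto and 0.018 for Alkbh5. The block raised the calls over all genes to 1847 higher and 1580 lower. The methods describe pairs of samples, but not which libraries form them, and the deviations of libraries with the same number had a correlation of 0.0293 (across 13732 genes, which are not independent). Whether the block by number matches the true pairs is therefore unknown, and it was not used for the reported values. Library size only gave 980 genes higher and 1810 lower, with the median of all genes at -0.07, and with no filter on low counts 524 were higher and 304 lower.

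Among the related lists, library size only left 1 gene higher and 1 lower of the DNA methylation writers, 0 higher and 2 lower of the genes that act after TET enzymes, and 1 higher of the genes for 2-oxoglutarate, and it left no tRNA gene higher. Without the filter on low counts the calls fell to 1 higher of the DNA methylation writers, 0 higher of the genes after TET enzymes, 0 of the readers of methylated DNA, 0 higher of the tRNA genes and 1 higher with 0 lower of the genes for 2-oxoglutarate. With the replicate block 1 m6A reader gene was called lower, 1 reader of methylated DNA higher and 3 tRNA genes higher.

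Of the 8 genes, only Alkbh8 changed sign, from 0.0019 on the log2 scale to -0.0025 with DESeq2 size factors, -0.017 with upper quartile, -0.063 with library size only, -0.0035 with at least 10 counts in every library and with the replicate block, -0.0057 with DESeq2, -0.0065 with limma-voom and -0.00084 with the legacy method, which was chosen after seeing the data. With single libraries left out it ranged from -0.21 to 0.18. The cause was not tested. Of the log2 fold changes of the 8 genes under the 13 alternatives, 84 kept their direction and side of the threshold and 10 gained a call. In the fits without 1 library, the spread of its group is taken from the other group. Depth limits Tet1 most.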
